A study of Mus musculus with 4 samples.

Results

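This account concerns exonic bins that were read in 18-month mouse thigh muscle and hardly at all in 28-month muscle. An exonic bin is a piece of exon between neighbouring annotated boundaries, so that a gene with alternative exon ends is divided into several bins. Bins were taken with at least 10 counts in the 18-month library and at most 1 count in each 28-month library, in genes whose bins summed to at least 500 counts in every library, and units that join several genes were left out. The rule found 261 bins in 239 genes, 0.174% of the 150107 bins of 7136 eligible genes (3.35% of those genes), out of 374286 bins in all. Because these counts chose the bins, the difference between the ages in them is given as a description and was not tested.

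The libraries came from thigh skeletal muscle of wild-type male C57BL/6J mice, an inbred strain, with 3 libraries at 28 months and 1 library at 18 months, and no treatment was recorded. The labels do not say whether each library was made from a separate animal, and they give no batch. With 1 library at 18 months, the age and that library cannot be told apart. By the design text, sequencing served as a check on exon arrays run on the same material to study splicing, and those arrays are not analysed here.

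Bin counts summed to between 67279205 and 76163175 at 28 months and to 65780464 at 18 months, so the 18-month library was the shallowest. The extraction text of the labels describes epidermal cells of skin, whereas the 12 markers of fast muscle fibres summed to between 153381 and 230820 CPM (bin counts of a gene per 1 M of the library's bin counts) at 28 months and to 143970 CPM at 18 months. The 9 measured keratinocyte markers summed to at most 1.47 CPM, and Krt5, Ivl, Krt15 and Dsc3 had 0 counts in every library. All 9 Schwann cell markers were higher at 18 months than in every 28-month library (340 CPM against 127 to 170), and 8 of 10 macrophage markers were lower than in every one (178 CPM against 206 to 468). Adipocyte markers were lower in 5 of 6 (1582 CPM against 2381 to 3017). Replicate 2 at 28 months had the highest sums of fibroblast markers (3368 CPM against 851 and 1364 in the other 28-month libraries, 1413 at 18 months) and endothelial markers (525 against 185 and 220, 270 at 18 months). Replicate 3 had the highest sum of red blood cell markers (3425 CPM against 334 and 187 in replicates 1 and 2, 184 at 18 months). Slow muscle fibre markers summed to between 503 and 780 CPM at 28 months and to 622 CPM at 18 months. Of the 69 marker genes measured, 47 were eligible and 0 held a selected bin, and the part of these cells in the bins was not tested. In bulk tissue, fewer cells of a type and less RNA per cell cannot be told apart.

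Most introns begin with the letters GT, the donor site, and end with AG, the acceptor site. The spliceosome joins the exon before a donor to the exon after the next acceptor and discards what lies between. Annotations also hold transcripts that keep an intron or run some way into it, usually noncoding ones, and such transcripts cut the intron's edge into bins of its own. A read counts in a bin of this kind only if it covers intron letters.

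The selected bins lay mainly on such intron edges. Positions came from the GENCODE M21 annotation of GRCm38 for genes with as many bins there as in the deposited tables, which placed 183 of the 261 bins (70.1%). Matching bin numbers are a sign, not proof, that a placement is right. Of the 183, 71 began just after an annotated donor site, 70 ended just before an annotated acceptor site, and 32 ran the whole way from a donor to an acceptor. Together these made 173 bins (94.5%), where 15.3% of all 83946 placed bins of eligible genes, and 7.43% of the 57126 with at least 10 counts at 18 months, had such a position. Another 5 bins were separate exons and 5 were other parts of an exon. The sets behind 15.3% and 7.43% include bins that the rule's limit on counts in the older libraries keeps out. Part of this contrast may therefore be set by the rule.

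The letters at the exon edge show what these bins are. Each line below gives the edge of a bin read from a GENCODE M21 transcript that contains it, 5′ to 3′ on the gene's strand, with the bin in capitals and the rest of the transcript in lower case. They are the 8 intron-edge bins with the highest 18-month counts, followed by the next in order, a pair of bins of 1 base in genes of protein synthesis and folding. Bin numbers count along the chromosome, so they fall from 5′ to 3′ in genes on the minus strand.
Ndufa5: TACGGTTTGGTTTTGCAGaggctcacaata
Zfp106: Gagtcgaaagtgt
Rpl22: tttctccaaaagGTATGAGGGGCGTGTACC
Ywhae: ccgtgcctgcagGTAAGTAGTGGACAAAAT
Pmpca: gtaccgtaggaaGTAAGTTCTATTGGCCAT
2610507B11Rik: ATTCATTCCTATTTCCAGatttgactgaga
Gys1: gaccgtgtgaagGTCAGGGCTGGCCCGAGg
Cyb5r1: ctggtgggacagGTCTGTATCACTTGAGGG
Eif3f: agcaacatcaatG
Cct8: ttggatatcgagGtactaagatttgacttt
The Rpl22, Ywhae, Pmpca, Gys1 and Cyb5r1 bins open with GT, the first letters of the intron, and the Ndufa5 and 2610507B11Rik bins close with AG. The bins of Eif3f and Cct8 are the single G after an exon, and that of Zfp106 is the single G before one. In Cct8 the transcript shown runs on past this base into the next bin.

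Of the 99 placed bins that follow a donor site and have at least 2 bases, 98 began with GT, against 96.1% of the 7621 such bins in eligible genes. All 98 searched bins that precede an acceptor site ended with AG, against 98.5% of 7181. Only the gene's own strand and these end positions were read. The letters follow from where the annotation puts its splice sites and describe the bins, not how they came to be read.

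The annotation of the bins was largely noncoding. Of the placed bins, 153 (83.6%) lay only in noncoding transcripts other than decay targets, against 13.3% of all placed bins of eligible genes. A further 5 lay only in transcripts marked for nonsense-mediated decay, 11 lay in untranslated and 14 in coding parts of protein-coding transcripts. A transcript of the retained intron class held 110 of them (60.1%, against 34.7%), and 163 (89.1%, against 31.0%) were part of 1 annotated transcript only. The comparison values cover all placed bins of eligible genes, including bins that the rule's limit on counts in the older libraries keeps out. Part of these differences may therefore be set by the rule, and they are given as a description only.

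No selected bin was the first of its gene, and 4 were the last. Along the gene, the first 25% of bins held 28 of the 261, the second 88, the following 25% 96 and the last 25% 49. As percentages these were 10.7, 33.7, 36.8 and 18.8%. Bins of eligible genes with at least 10 counts at 18 months, which could have met that threshold, had 15.9, 25.2, 29.0 and 29.9% in the same order, and 2.24% of them were first bins. All bins of eligible genes with a known strand had 24.4% to 25.7% in each. Lengths ran from 1 to 4074 bases with a median of 120, close to the median of 104 over all placed bins, and 8 bins were 1 base long.

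**Figure D1:**
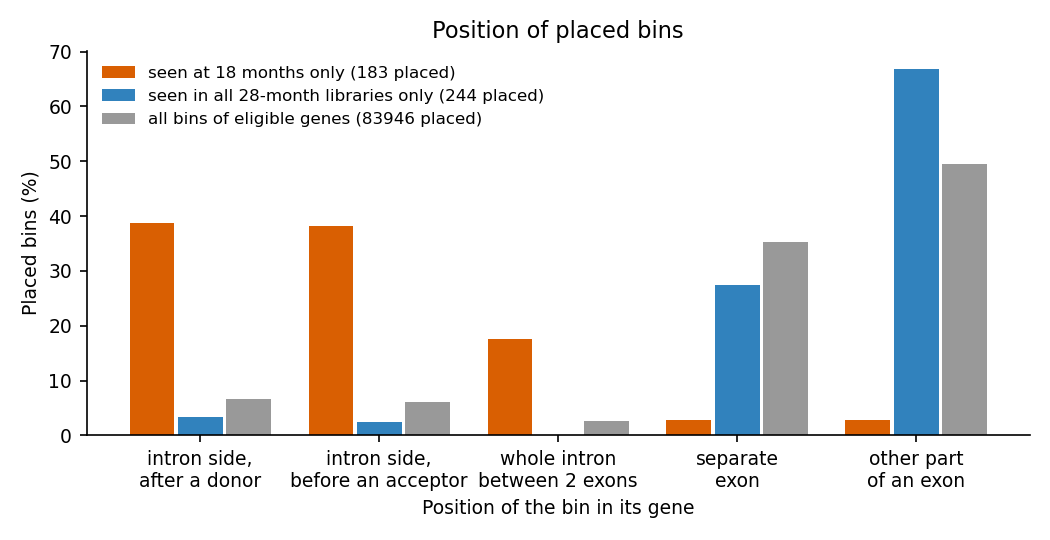
Percent of placed bins (vertical axis) in each position class (horizontal axis), for the bins seen at 18 months only (orange, n = 183), the bins seen in all 28-month libraries only (blue, n = 244) and all bins of eligible genes (grey, n = 83946). Orange bars are tallest in the 3 intron-side classes on the left and blue and grey bars in the exonic classes on the right. The bars are shares of 1 set each and carry no error. Grey bars include bins that the limit on 28-month counts keeps out of the orange set.

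The reverse rule, with at most 1 count at 18 months and at least 10 in every 28-month library, gave 456 bins in 364 genes (0.304% of the bins of eligible genes). Of the 244 that could be placed, 14 (5.74%) lay on an intron side. Among all 456, 322 lay in the first 25% of their gene's bins and 90 were the first bin. The selected bins and the reverse set thus held different kinds of position, a difference given as counts and not tested.

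Counts of the 261 bins at 18 months had a median of 14, with 186 bins at 10 to 19, 60 at 20 to 49, 10 at 50 to 99 and 5 at 100 or more. In the 28-month libraries 115 bins had 0 counts throughout, 113 had 1 count in 1 library, 28 had 2 counts in all and 5 had 3. Summed over the bins, replicates 1, 2 and 3 at 28 months held 35, 102 and 47 counts, and the 18-month library held 5598. Replicate 2 thus held more of the stray counts than either of the others. The set rests on replicate 2 to a large extent: without that library the same thresholds took 663 bins in 544 genes, against 301 without replicate 1 and 292 without replicate 3. The intron-side share of placed bins was 93.1% without replicate 2 (461 placed).

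**Figure D2:**
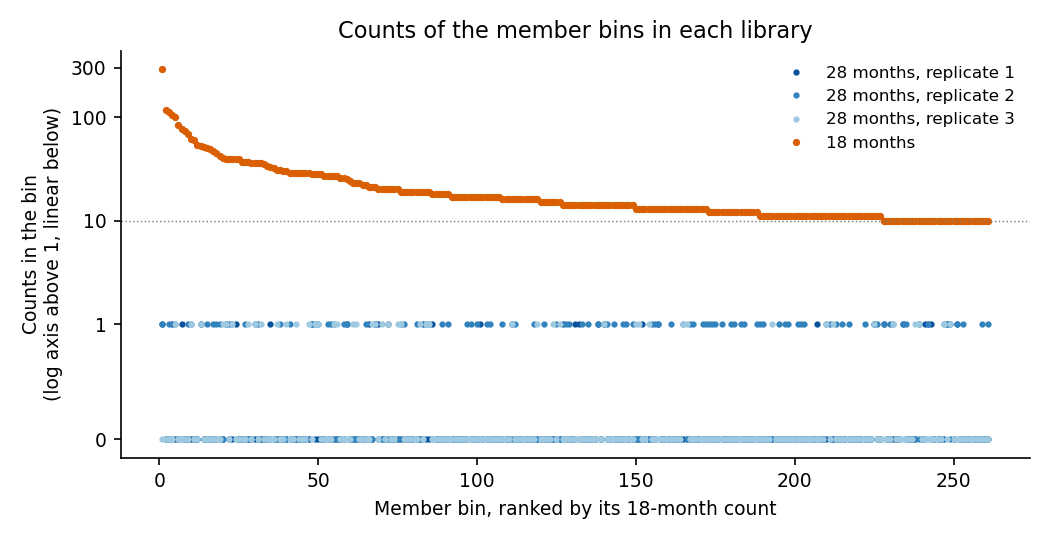
Counts in each of the 261 bins (horizontal axis, ranked by the 18-month count) for the 18-month library (orange) and the 3 28-month libraries (blue shades); the vertical axis is logarithmic above 1 and linear below. The 18-month points run from 289 down to the threshold of 10 and all 28-month points lie at 0 or 1, as the rule requires.

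The highest count was in Ndufa5, a subunit of respiratory complex I (ENSMUSG00000023089, bin 5, 91 bases before an exon, chr6:24522776-24522866, minus strand). It was counted 1, 1 and 0 times in replicates 1, 2 and 3 at 28 months and 289 times at 18 months. The exon bin it touches had 3636, 2815 and 2505 counts in the 28-month libraries and 2358 in the 18-month library, so the exon was read in all libraries and the intron edge almost only at 18 months. At 18 months the bin took 2.68% of the gene's counts (exact Clopper-Pearson 95% interval 2.38 to 3.00, counting error only). The gene as a whole stood at 169.8 ± 25.04 CPM (SD, n = 3) at 28 months and 164 CPM at 18 months. Ndufa10, another complex I gene, had 1, 1, 0 and 25 counts in bin 20, in the same order, 66 bases before an exon (chr1:92470986-92471051).

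Zfp106, a zinc finger RNA-binding protein needed for the upkeep of motor nerve and muscle, had 0 counts at 28 months and 117 at 18 months in bin 14, the lone base before an exon (ENSMUSG00000027288, chr2:120520546-120520546). The exon bin beside it had 3003, 1890 and 2425 counts in the 28-month libraries and 2432 in the 18-month library. The 18-month share of the gene was 0.0862% (exact interval 0.0713 to 0.103). At 28 months the count of 0 among 286374 counts of the gene has an upper limit of 0.00105%, and since the rule chose the bin by these counts, the limit and the interval state the counting precision and compare nothing. This gene stood above the 28-month range at 18 months, at 2063 CPM against 1311 ± 297 (SD, n = 3).

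Rpl22, a protein of the large ribosomal subunit, had 0, 1 and 0 counts in the 28-month libraries and 112 in the 18-month library in bin 15, the 147 bases after an exon (ENSMUSG00000028936, chr4:152330129-152330275). The exon before it had 2581, 1932 and 1949 counts in the 28-month libraries and 1257 in the 18-month library. The same library read the gene's upstream exons less: bin 4, near the 5′ end, had 1031, 900 and 956 counts in the 28-month libraries and 117 in the 18-month library. Its last long bin, of 1590 bases, had 2360, 1991, 2081 and 2976 counts.

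Gys1, the muscle enzyme that builds glycogen, had 0 counts at 28 months and 54 at 18 months in bin 15, the 17 bases after an exon (ENSMUSG00000003865, chr7:45448012-45448028). It took 0.197% of the gene's counts at 18 months (exact interval 0.148 to 0.258). Bin 13 of the same gene, 167 bases before the exon, had 1, 3, 1 and 34 counts and missed the rule through replicate 2. Another intron-side bin of Gys1 went the other way: bin 18, 538 bases before an exon, had 110, 145, 98 and 4 counts. Gys1 had 368 ± 48.9 CPM (SD, n = 3) at 28 months and 416 CPM at 18 months, within the 28-month range.

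**Figure D3:**
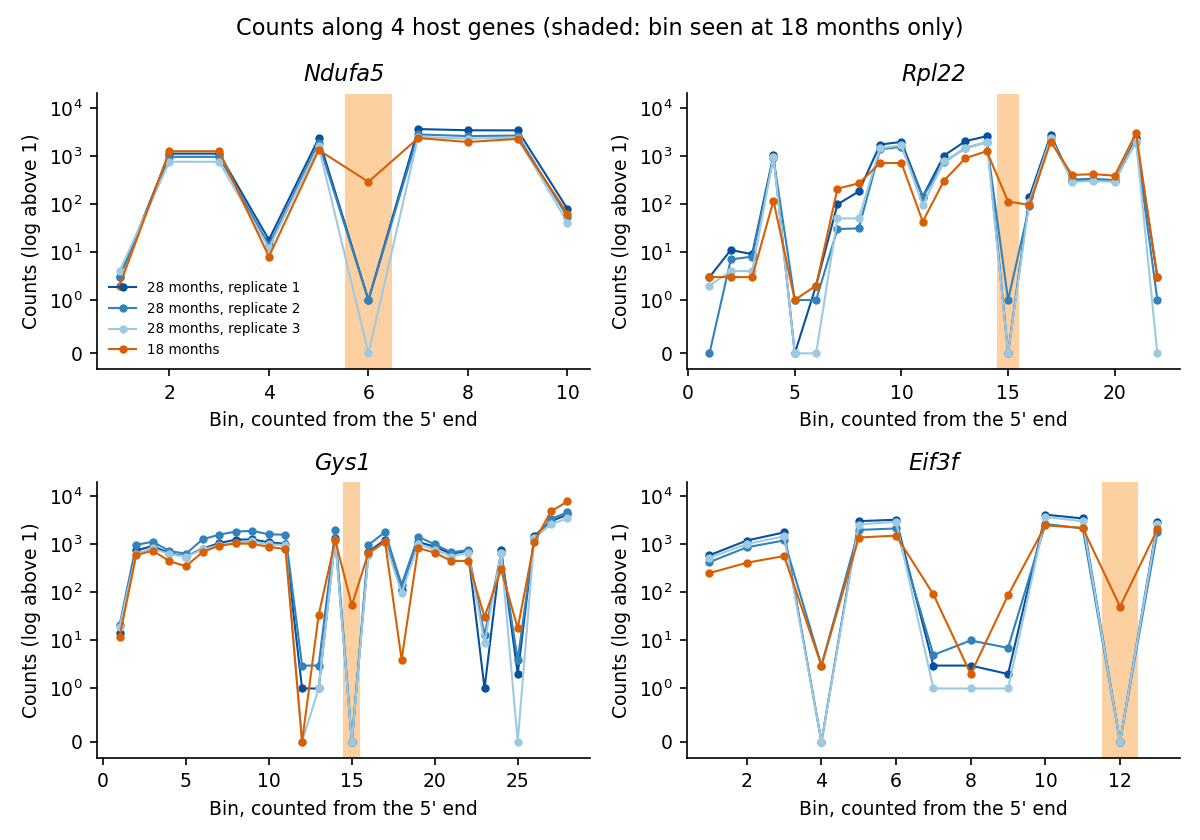
Counts per bin (vertical axis, logarithmic above 1) along Ndufa5, Rpl22, Gys1 and Eif3f, with bins counted from the 5′ end (horizontal axis), for the 18-month library (orange) and the 3 28-month libraries (blue shades); shaded bins are those seen at 18 months only. At the shaded bins the 18-month values are 289, 112, 54 and 51 and the 28-month values 0 or 1. The lines also part at unshaded bins, such as bin 4 of Rpl22, bin 18 of Gys1 and the first 3 exons of Eif3f, where the 18-month library is lower, and bins 7 and 9 of Eif3f, where it is higher.

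Eif3f, a subunit of the translation initiation factor eIF3, had 0 counts at 28 months and 51 at 18 months in bin 12, a lone base after an exon (chr7:108941008-108941008). In another intron of this gene, which the annotation cuts into 3 bins, the piece after the donor had 3, 5 and 1 counts in the 28-month libraries and 91 in the 18-month library. The piece before the acceptor had 2, 7 and 1 counts against 88, and the 169 bases between them had 3, 10 and 1 counts against 2. The edges of that intron were thus read at 18 months and its inside hardly at all, and none of these bins met the rule. This intron was added after its values were seen, and introns cut in such a way were less extreme as a set. Over 173 of them, in 143 genes, edges had 71.6 and insides 40.6 counts per 1000 bases at 18 months. In 28-month replicate 1 these values were 40.7 and 35.3, and in replicate 3 they were 40.1 and 43.6. In replicate 2 the insides were also the higher, at 292.5. Some of these introns overlap, so that a bin can enter the sums more than once. The sums also rest on few genes. Of 7628 edge counts at 18 months, an Atp5b intron held 1170 and overlapping Rsrp1 introns held 862 and 1057. Of 18296 inside counts in replicate 2, an Rsrp1 intron held 8020. The difference between edges and insides was not tested. Cct8, a subunit of the chaperonin that folds actin and tubulin, had 0, 1, 0 and 50 counts in bin 6, also 1 base after an exon (chr16:87485579-87485579). The next bin of Cct8 in the 3′ direction had 0, 5, 0 and 52 counts, so there the 18-month counts went on past that base.

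Among the selected bins, the 18-month count relative to the exon hardly tracked length. The rule chose these bins by their counts, at least 10 at 18 months and at most 1 in each 28-month library. Part of this pattern may therefore be set by the rule, and it is given as a description of the selected bins only. In the 141 bins that touch an exon on 1 side, the 18-month count was 6.71% of the count of that exon bin at the median, with a range from 0.899% to 31.4%. The median was 4.42% for the 8 bins of 1 base, 6.23% for 9 bins of 2 to 10 bases, 5.68% for 28 bins of 11 to 50 bases, 6.88% for 51 bins of 51 to 200 bases and 6.90% for 45 longer bins. Across these bins, which share 1 library, Spearman's rho was 0.04 between length and this percentage and -0.20 between length and the bin's own count, and between the exon bin's count and the bin's own count it was 0.48. The touched exon bin had at least 10 counts in every library for all 141.

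**Figure D4:**
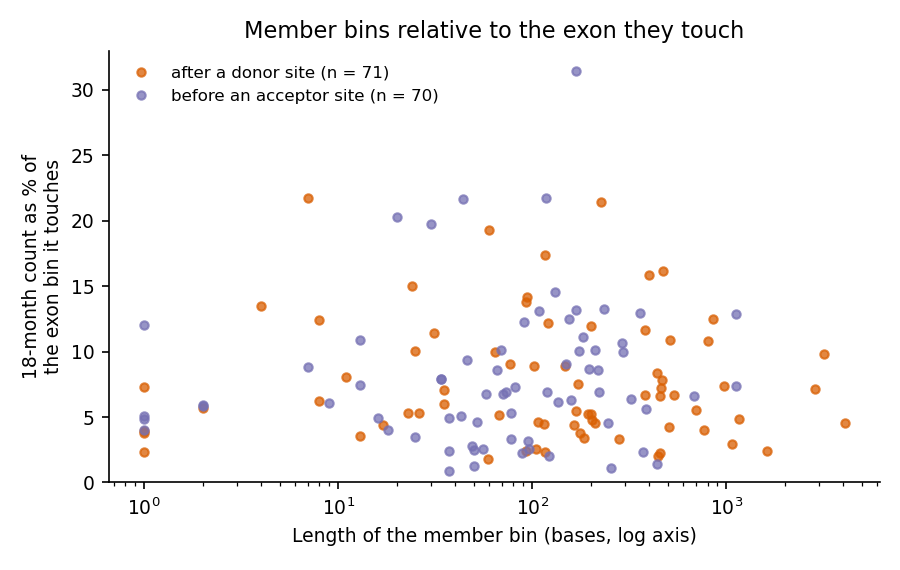
The 18-month count of a bin as a percent of the exon bin it touches (vertical axis) against the bin's length in bases (horizontal axis, logarithmic), for 71 bins after a donor site (orange) and 70 before an acceptor site (purple); each point is 1 bin in the 18-month library. The points cover much the same heights from 1 base to over 1000 bases, in bins that the rule chose by their counts.

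The other bins with high counts were a mixed group. Usp9x, a deubiquitinase, had 1, 0, 0 and 104 counts in its last bin, 3430 bases of untranslated region (chrX:13169899-13173328), and 0, 0, 0 and 8 in the bin before. This bin is no intron edge. Flnc, which links actin filaments at the Z-disc, had 0, 1, 1 and 100 counts in bin 51 of 53, and its neighbours had 2300 and 3673 counts in 28-month replicate 1 and 2294 and 4804 at 18 months. BC004004 had 0, 0, 0 and 84 counts in bin 7 and 1, 0, 0 and 39 in bin 13. The Flnc and BC004004 bins could not be placed.

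Ywhae, a 14-3-3 adaptor protein, had 1, 0, 0 and 77 counts in the 93 bases after an exon (chr11:75757024-75757116). Pmpca, a subunit of the protease that trims imported mitochondrial proteins, had 0, 1, 1 and 62 in the 64 bases after one (chr2:26390139-26390202), and 2610507B11Rik had 0, 0, 0 and 60 in a bin that ends at one (chr11:78266133-78266350). Cyb5r1, a reductase, had 1, 1, 1 and 52 in 379 bases after an exon (chr1:134408488-134408866). In all 4 the 18-month count stood alone while the touched exon had at least 447 counts in every library.

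As shares of their gene the bins were small. The median was 0.323% of the gene's counts at 18 months, 26 bins reached 1% and 24 were under 0.1%. The largest shares were in Srp54c, a copy of the gene for a signal recognition particle protein, at 3.45% in bin 2 (exact interval 2.47 to 4.69) and 3.01% in bin 18. Its bins had 0, 0, 0 and 39 counts and 0, 0, 0 and 34 counts, and another, bin 15, had 0, 0, 1 and 20. Srp54c has close copies in the genome among which reads may be divided, so these values are uncertain. S100a4, a calcium-binding protein, had 0, 0, 1 and 29 counts in bin 4, or 2.50%. Snrpe, a core protein of the spliceosome, had 0, 0, 0 and 28 counts in 116 bases after an exon (chr1:133610048-133610163), or 2.00% of the gene.

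Ephx1, an epoxide hydrolase, had 0, 0, 0 and 29 counts in a separate coding exon at the end of the gene (1.92%), where an exon of Gm36961 lies on the same strand, so its reads cannot be assigned. Cln3, a lysosomal membrane protein, and Cenpv had 10 and 13 counts, at shares of 1.90% and 1.83%. At the other end stood Ttn, the giant spring of the sarcomere, with 0, 0, 1 and 13 counts in 473 bases from a donor to an acceptor and 0.00323% of the gene.

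Few of the placed bins were ordinary exons. Pebp1, an inhibitor of Raf kinase, had 0, 1, 1 and 39 counts in a separate coding exon of 66 bases (chr5:117284064-117284129). Myh8, the perinatal myosin heavy chain, had 0, 0, 1 and 27 in one of 91 bases (chr11:67297929-67298019), and the next bin in the 3′ direction had 2, 1, 9 and 71. Tomm5, a part of the mitochondrial import pore, had 0, 1, 0 and 16 in one whose sequence is also found in Malt1 and Sae1, so that its reads are uncertain. Arl1, a GTPase of the Golgi, had 0, 1, 0 and 17 in a separate untranslated exon. These 4 with Ephx1 make up the 5 separate exons.

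In 3 genes the rule found 3 bins, in 16 genes 2 bins and in 220 genes 1 bin, and 3 pairs of bins lay next to each other. Besides Srp54c, the genes with 3 were Stoml2, a mitochondrial inner membrane scaffold, and Aars, which loads alanine onto its transfer RNA. Stoml2 had 22, 11 and 10 counts at 18 months and at most 1 in any 28-month library. The bins of Aars had 12, 11 and 11 counts at 18 months, beside exon bins of 404, 88 and 429 counts. Of the 151 placed bins with at least 30 bases, 22 had a stretch of at least 30 bases with 95% identity or more in an annotated transcript of another gene, and 2 placed bins lay under an exon of another gene, Ephx1 and, on the opposite strand, Ubxn6.

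The host genes were described by lists of genes of 1 function or structure, each against the 3.35% of eligible genes that held a bin and the 0.174% of their bins that were selected, since genes differ in their number of bins. Enzymes of the citric acid cycle and fatty acid oxidation had 5 hosts among 35 eligible genes (14.3%). Acadm, which starts the oxidation of medium-chain fatty acids, had 0, 0, 0 and 73 counts in bin 12, and Acadsb, which acts on short branched chains, had 0, 0, 1 and 36 in bin 13. Hadha had 0, 0, 0 and 30 counts, Hadh 0, 0, 1 and 23, and Dlat, a subunit of pyruvate dehydrogenase, 0, 1, 0 and 11. In Hadh the bin was the 59 bases after an exon that had 1827, 2804, 1466 and 1309 counts.

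Translation factors had 8 hosts among 55 (14.5%). Eif3f was one, and Eif3i had 0, 0, 0 and 32 counts in the 13 bases after an exon. Eif2b5, Eif2b2 and Eif2b1, subunits of the exchange factor for eIF2, had 19, 15 and 12 counts at 18 months. The scaffolds Eif4g3 and Eif4g1 had 16 and 13 and the kinase Eif2ak1 had 13, in a bin with sequence that occurs in transcripts of many other genes. In these 6 genes no 28-month library had more than 1 count, as the rule requires.

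Contractile and sarcomere genes had 6 hosts among 59 (10.2%). Actn2, which crosslinks actin at the Z-disc, had 0, 1, 0 and 68 counts in bin 19. Myom2, of the M-band, had 0, 1, 0 and 42 in 255 bases before an exon whose own bin had 5192, 2973, 5127 and 3782. Capzb, which caps actin filaments, had 0, 0, 0 and 36 in 173 bases after one. Flnc, Myh8 and Ttn were the others.

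The remaining lists held few hosts. Signalling adaptors had 3 of 20 (15%), namely Ywhae, Ppp2r1a and Ppp3cb, and collagens and matrix genes had 2 of 32 (6.25%). Sparc, a matrix glycoprotein, had 0, 0, 0 and 37 counts and Bgn, a small proteoglycan, 0, 0, 0 and 29. Splicing factors had 4 of 86 (4.65%), the ubiquitin and proteasome list 3 of 70 (4.29%), glycolysis and glycogen 1 of 25 (4.0%), and mitochondrial ribosomal proteins 2 of 66 (3.03%), of which Mrpl15 had 0, 0, 0 and 29 counts. Prpf31, a splicing factor, had 0, 0, 0 and 17 counts in the lone base before an exon, and Psmd4, a ubiquitin receptor of the proteasome, had 0, 1, 0 and 19.

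Respiratory chain genes had 2 of 75 (2.67%), cytosolic ribosomal proteins 1 of 50 (2.00%) and chaperones 1 of 64 (1.56%). Calcium handling genes had 0 of 23. Per bin, the order partly turned. The respiratory chain (0.237% of its bins) and mitochondrial ribosomal proteins (0.258%) lay above 0.174% though their share of genes was under 3.35%, and collagens and matrix (0.147%) and glycolysis (0.161%) lay below it though theirs was over. Adaptors (0.915%), translation factors (0.764%), the citric acid cycle and fatty acid list (0.727%) and the contractile list (0.297%) lay above by either measure. So did the ubiquitin and proteasome list (0.242%) and, by little, splicing factors (0.188%). Chaperones (0.0817%), calcium handling (0) and, by little, cytosolic ribosomal proteins (0.170%) lay below by either. All lists together had 38 hosts among 656 genes (5.79%). These counts moved with 28-month replicate 2. Without it the chaperones had 13 hosts (20.0%), splicing factors 13 (15.1%) and the ubiquitin and proteasome list 11 (15.7%). The citric acid cycle and fatty acid list had 13 (37.1%) and the respiratory chain 4 (5.33%), while all eligible genes had 544 of 7168 (7.59%). The contractile list then had 6 of 59 (10.2%) and translation factors 10 of 55 (18.2%). With 0 counts required in each 28-month library, all eligible genes had 112 hosts (1.57%). The contractile list then had 1 of 59 (1.7%), the adaptors 0 of 20 and translation factors 6 of 55 (10.9%). With at least 20 counts required at 18 months, translation factors had 2 of 55 (3.64%), and all eligible genes had 72 hosts (1.01%).

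**Figure D5:**
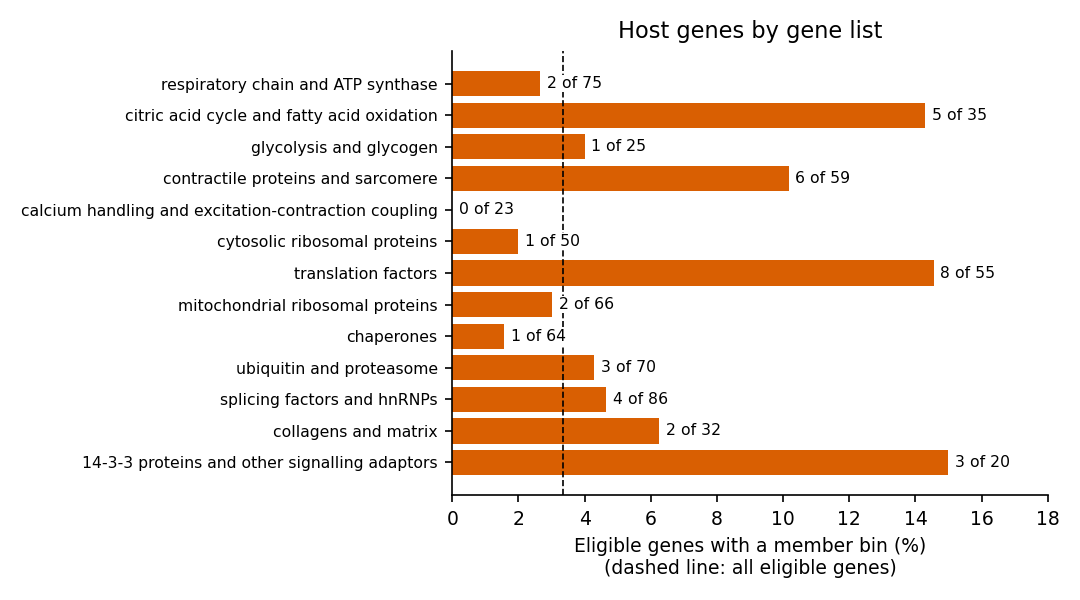
Percent of the eligible genes of each list that hold a bin seen at 18 months only (horizontal axis), with the number of hosts and of eligible genes beside each bar; the dashed line marks 3.35%, the value over all eligible genes. Adaptor, translation factor and fatty acid oxidation lists stand at 14.3% to 15% on 3 to 8 genes each, and the calcium handling list at 0.

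Abundant genes held more of the bins. Of the 1784 eligible genes with the lowest 18-month totals (500 to 1131 counts), 9 were hosts (0.504%), and of the 1784 with the highest totals (4573 counts and over), 130 were (7.29%). The median total at 18 months was 5382 counts for hosts and 2074.5 for eligible genes. Hosts also had more bins, 28 against 18 at the median. The lists above were not matched for abundance, and its part in their order was not tested.

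The 18-month CPM of the host genes, all of which the rule required to be read in every library, lay within the 28-month range in 101 of 239 genes (42.3%, against 51% of all eligible genes), below it in 102 (42.7%, against 29.97%) and above it in 36 (15.1%, against 19.03%). Of the 261 bins, 189 had at least 10 counts in every library in both neighbouring bins.

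The libraries also differed in properties beyond the selected bins. At the median eligible gene, the upstream 50% of the bins held 27.2, 28.6 and 27.4% of the gene's counts in replicates 1, 2 and 3 at 28 months against 20.7% at 18 months, with the selected bins left out. In the host genes these values were 30.6, 32.7 and 30.9% against 25.5%. Placed intron-side bins that lie only in noncoding transcripts, again without the selected bins (7535 bins), held 0.214, 0.403 and 0.213% of placed counts at 28 months and 0.357% at 18 months. By this measure 28-month replicate 2, not the 18-month library, had the highest value. Among the 1159 of those bins with a mean of at least 10 counts, the 18-month share of the gene was above all 28-month shares in 484 (41.8%) and below all of them in 199 (17.2%). Over all 4038 intron-side bins with such a mean it was above in 32.7% and below in 36.0%, and over 56054 other placed bins above in 20.7% and below in 57.4%. Within the wider intron-side class the 2 directions were thus near equal. Compared with the other placed bins, that class lay above more often and below less often. The part of these properties in the selected bins was not tested.

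At the edges of the rule, 34 of the 261 bins had exactly 10 counts at 18 months. Psme4 (1, 1, 0 and 10 counts) and Kif1b (0, 0, 0 and 10) were those in the most abundant genes. Just outside lay 48 bins with 9 counts, such as one in Cct8 (0, 0, 0 and 9). Another 141 bins had at least 10 counts at 18 months and a highest 28-month count of 2, such as one in Smpx (0, 0, 2 and 29) and a second in 2610507B11Rik (0, 2, 0 and 17).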

How the data were processed

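The authors deposited 1 file for each of the 4 libraries, which gives whole-number counts of exonic bins without any scaling. Per the submitters' processing notes, reads were handled with bcl2fastq 1.8.3, TopHat2 2.0.4 and GRCm38. Which program counted the bins, with which annotation and strand setting, is not given in the sources used here, so reads of overlapping antisense genes cannot be told apart. The 5 special entries, which name no gene, made up 3.36 to 5.20% of all entries' counts and were left out.

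Counts were used as deposited, with CPM over all bins. Bins were numbered as in the files and placed by flattening GENCODE M21 per gene, which gave an equal number of bins for 3895 of 7136 eligible genes (54.6%). Edge sequences came from the M21 transcripts, sequence shared with other genes was searched with BLAST 2.17.0, and the rest used Python 3.11.15, numpy 2.4.6, pandas 2.3.3, scipy 1.17.1 and matplotlib 3.10.9. Intervals are exact binomial (95%) and limits for 0 are 3 counts, and both cover counting error only. Neighbouring bins can share reads: bins 8 and 9 of Ndufa5 both had 1257 counts at 18 months. A share of a gene's counts is thus not a share of its reads, and depends on how finely the annotation cuts the gene. The intervals treat the summed bin counts as separate reads. The rule was run on simulated counts with planted bins, and the position classes on a made-up gene of known layout. Both check the procedure only and say nothing about the libraries.

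No test was made, since the rule used the only contrast and 1 group has 1 library. The bins and lists were chosen with earlier results of these data known. Bins named were the 12 with the highest counts, the 8 with the highest shares, 2 per list, those of genes with 3 bins, the 8 highest intron-edge bins and those at the thresholds; other list hosts, separate exons and further bins of the named genes were added after their values were seen. Alternatives were other thresholds, gene floors, scaling, joined units, other denominators and leaving out each 28-month library; a threshold on shares and a set without shared sequence were chosen after seeing the data.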

Additional observations from a re-analysis of the deposited data

How the results depend on the processing

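The number of bins followed the thresholds by construction. It was 738 (in 628 genes) with at least 5 counts at 18 months, 75 (72 genes) with at least 20, 115 (112 genes) with 0 counts in each 28-month library, 544 (457 genes) with at most 3 there, and 455 where each 28-month share was under 10% of the 18-month share. Leaving out 1 28-month library gave 292 to 663 bins in 264 to 544 genes, the highest without replicate 2. Gene floors of 100 and 1000 counts (264 and 250 bins), scaling to the smallest library (261) and joined units (281) stayed within 1.5 times. The intron-side share of placed bins was 97.4% with 0 counts at 28 months. It was 91.5 to 96.7% with at least 20 counts, a library left out, first and last bins left out or the threshold on shares. Without bins shared with another gene or too short to search it was 95.4%. For the other thresholds, the gene floors, scaling and joined units this share was not taken. The median share of the gene was 0.355% with at least 20 counts, and the median was 1.74% when taken over the gene's highest bin. Listed genes with a bin numbered 38, and were 22 with at least 20 counts, 18 with 0 counts at 28 months and 41 to 85 with 1 library left out; of 65 counts of single lists under these settings, 23 moved by more than 1.5 times. No paired analysis was possible because the 18-month group has 1 library and no test was made. The lone 18-month library, the 0 to 3 counts per bin at 28 months and the 78 bins without a position limit what can be said.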
